A study of Mus musculus with 20 samples.

Results

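Endothelial cells from an oxidative muscle that lack Atf4 were compared with wild type endothelial cells from a glycolytic muscle, to ask whether soleus endothelium without Atf4 resembles glycolytic endothelium and what stays different. The comparison holds 10 of the 20 libraries of the series. One group is the 5 libraries labelled as oxidative muscle endothelium from the soleus, with the genotype EC specific Atf4-/- (called Atf4 ECKO soleus here). The other is the 5 libraries labelled as glycolytic muscle endothelium from the extensor digitorum longus of wild type mice (called WT EDL). The other 10 libraries, 5 of WT soleus and 5 of Atf4 ECKO EDL, entered the same fit and are quoted for reference. All mice were C57BL/6N, were 8 to 10 weeks old at induction, and received 1 mg of tamoxifen per day for 5 days, followed by at least 7 days without it. The wild type controls were littermates without Cre that received tamoxifen too. Endothelial cells were sorted by flow as CD31-positive and CD45-negative, directly into lysis buffer. The driver of Cre and the number of animals behind a library are not given in the sources used here, so the p-values reflect how far these libraries spread, and that spread may be technical. Genotype and muscle both differ between the groups, and their shares in a difference cannot be told apart in this comparison.

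ATF4 is a transcription factor whose protein is made when kinases that sense amino acid shortage, unfolded protein, missing heme or viral RNA phosphorylate the initiation factor eIF2. It pairs with C/EBP family proteins and activates genes that make, import and charge amino acids, along with regulators that later close the response. In endothelial cells, this amino acid supply is known to feed growth of new vessels, and oxidative muscle carries a denser capillary bed than glycolytic muscle.

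The 5 Atf4 ECKO soleus libraries were not uniform, and this bears on many results. Y-linked genes stood at 61.7%, 62.7%, 30.8%, 0.891% and 1.05% of the wild type mean in libraries 1 to 5. The X-inactivation transcript Xist was at 18.6, 18, 43.8, 81.5 and 76.2 CPM in the same libraries (CPM, counts scaled to a common library size with TMM factors). Every WT EDL library held Y-linked RNA at 88.0% to 97.0% of the wild type mean and Xist at no more than 0.077 CPM. Sex therefore differs between the groups and cannot be told apart from genotype and muscle here. Libraries 1, 2 and 3 had intermediate levels of both kinds of RNA, and libraries 4 and 5 had almost no Y-linked RNA. Fibroblast markers, summed over 12 genes, reached 101 to 644 CPM in Atf4 ECKO soleus and 94.9 to 99.6 CPM in WT EDL. On the mean log2 level of that list, libraries 1 and 2 lay at -0.12 and -0.15 from the WT EDL mean, and libraries 3, 4 and 5 at 1.42, 2.27 and 2.37. List counts that moved by over 1.5 times without libraries 4 and 5, or with those alone, are given with that value beside them. Library totals were 8495672 to 21061644 counts in Atf4 ECKO soleus and 11267398 to 21720127 in WT EDL. The labelled cell type was borne out by its markers: all 16 pan-endothelial genes were detected in both groups, with summed levels of 13510 to 14140 CPM and 13730 to 14450 CPM.

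Atf4 ECKO soleus did not coincide with WT EDL. Of 13971 genes tested, 4044 differed (28.9%; edgeR quasi-likelihood test, Benjamini-Hochberg adjusted p below 0.05), 1896 higher in Atf4 ECKO soleus (13.6%) and 2148 lower (15.4%). Differences of at least 2-fold were made by 493 genes that were higher (3.53%) and 303 that were lower (2.17%). Between WT soleus and WT EDL, 4520 genes differed (32.4%), 2295 higher in soleus (16.4%) and 2225 lower (15.9%), of which 629 (4.5%) and 121 (0.866%) did so by at least 2-fold. Both comparisons share the WT EDL libraries, so their values are set side by side without a test between them. For 11145 genes (79.8%) the 95% interval of the difference lay within 1 on the log2 scale, and for 7882 (56.4%) it lay within 0.5. Of the 9927 genes that were not called, 6216 were bounded within 0.5 in this way, and the rest were not. In bulk RNA of sorted cells, fewer cells of a type and less RNA per cell cannot be told apart.

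As a summary of distance, the root mean square log2 difference between group means over all tested genes was 0.513 between Atf4 ECKO soleus and WT EDL. The same measure was 0.580 between WT soleus and WT EDL, 0.550 between Atf4 ECKO soleus and WT soleus, and 0.398 between Atf4 ECKO soleus and Atf4 ECKO EDL. Single library pairs of Atf4 ECKO soleus and WT EDL lay 0.637 to 0.708 apart, above all 10 pairs within Atf4 ECKO soleus (0.412 to 0.622) and all 10 within WT EDL (0.398 to 0.490). Pairs of Atf4 ECKO soleus with WT soleus lay 0.660 to 0.753 apart, a range that overlaps the one with WT EDL. On the first principal component (28.3% of the variance) Atf4 ECKO soleus scored -16.1 to -5.76, close to WT EDL at -5.72 to -3.91, with WT soleus far away at 43.7 to 48.9. On the second (17.2%) the groups were wide apart, with 20.5 to 23.4 in Atf4 ECKO soleus and -38.2 to -35.4 in WT EDL.

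**Figure D1:**
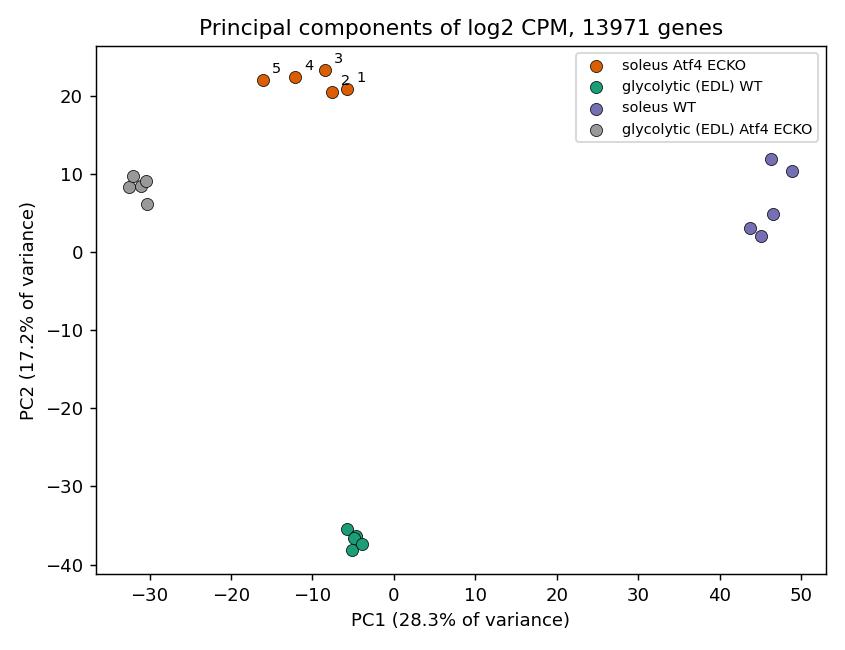
Principal components of log2 CPM over 13971 genes, with PC1 and PC2 (percent of variance on each axis); each point is 1 of 20 libraries, coloured by group, and Atf4 ECKO soleus libraries carry their number. Atf4 ECKO soleus lies beside WT EDL on PC1, where WT soleus is far to the right, and far from WT EDL on PC2.

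Atf4 itself was at 8.7, 8.15, 8, 7.97 and 8.64 CPM in Atf4 ECKO soleus libraries 1 to 5 and at 265, 259.5, 281, 243 and 261 CPM in WT EDL libraries 1 to 5. The groups did not overlap, as was so for 18.6% of all tested genes (7.8% higher and 10.8% lower in Atf4 ECKO soleus), and every deleted library lay near 8 CPM whatever its Y-linked share. The log2 difference was -4.97 ± 0.064 (adjusted p = 1.3e-27), against a level of 554 ± 21 CPM (mean ± SD, n = 5, as for all means here) in WT soleus. Neighbouring genes differed too. Atf4 lies at chr15:80255184-80257541 in GRCm38. Rps19bp1 (chr15:80260615-80264315, opposite strand), which encodes a binding partner of ribosomal protein S19, was at 1.84, 2.13, 2.18, 1.86 and 1.83 CPM in Atf4 ECKO soleus and at 17.9, 19.2, 17.6, 16.2 and 19.9 CPM in WT EDL (log2 -3.21 ± 0.133, adjusted p = 6.5e-16). Cacna1i (chr15:80287238-80398279), a calcium channel subunit, was at 18.8, 15.1, 14.5, 13.6 and 14.4 CPM in Atf4 ECKO soleus and had no count in any WT EDL library. Against a floor of 3 counts over the 5 WT EDL libraries, which covers counting error only, it was at least 426-fold higher. Cacna1i was at 19.5 CPM in Atf4 ECKO EDL and at 0 in WT soleus, so both deleted groups held the transcript and both wild type groups lacked it.

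Of amino acid and one-carbon synthesis genes, 13 of 17 were lower in Atf4 ECKO soleus than in WT EDL, and of cytosolic tRNA synthetases 14 of 20, beside 15.4% of all genes. Transporters were divided, with 6 of 16 lower, 3 higher and 7 not passed. In the plot of gene list levels the synthesis list of WT soleus lies above 0 and that of Atf4 ECKO soleus below it.

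**Figure D2:**
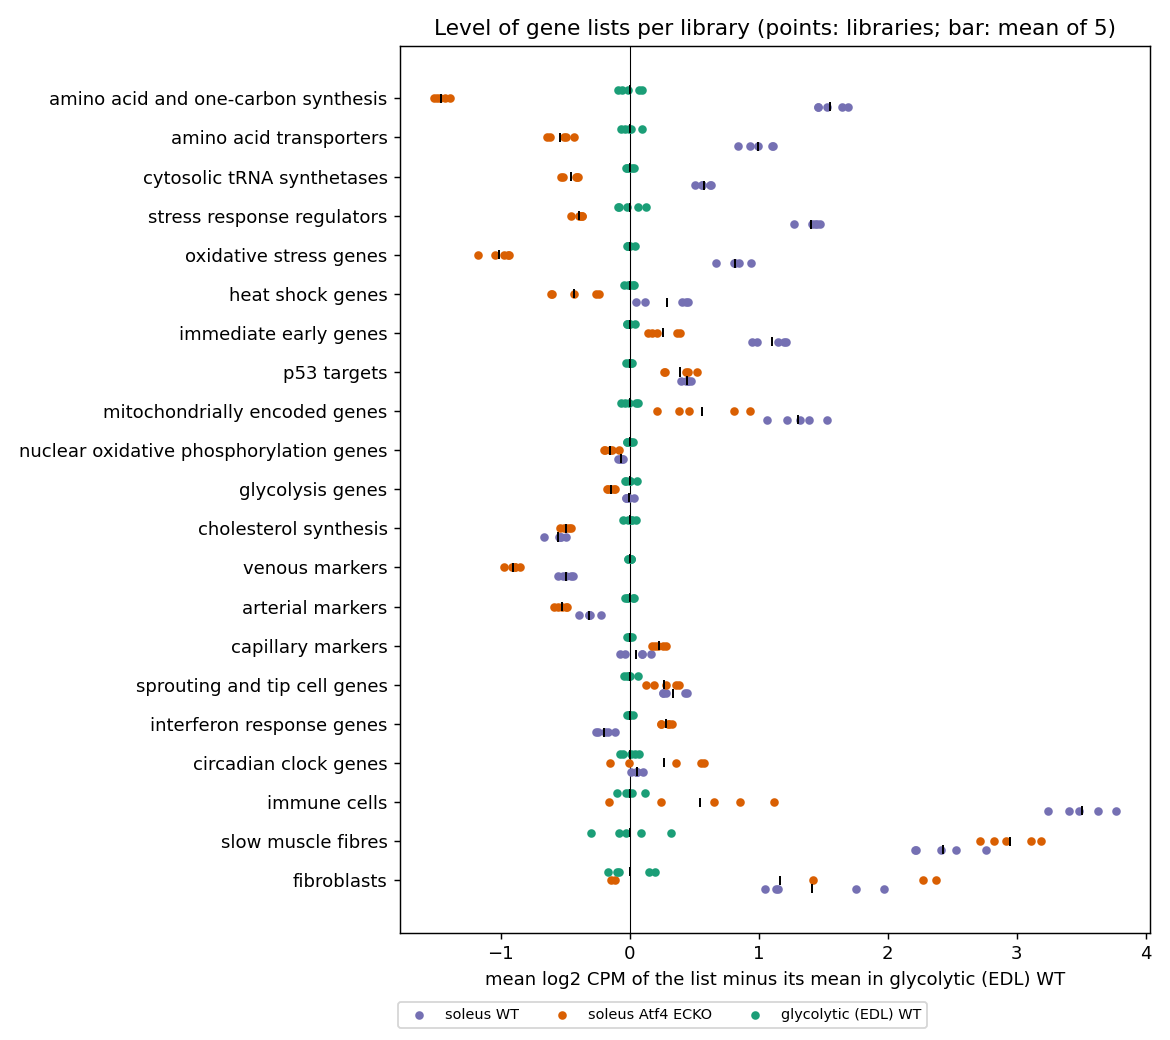
Mean log2 CPM of each gene list (x axis, as difference from the list's mean in WT EDL) for the 5 libraries of WT soleus, Atf4 ECKO soleus and WT EDL; points are libraries and bars are means of 5. In amino acid and one-carbon synthesis, Atf4 ECKO soleus libraries lie at -1.51 to -1.39, while cholesterol and venous genes are below WT EDL in both soleus groups. Atf4 ECKO EDL is not drawn, and its cholesterol and venous lists also lay below WT EDL.

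Genes of amino acid and one-carbon synthesis were lower in 13 of 17 tested members, higher in 1 and not passed in 3, with a median log2 difference of -1.93 beside 0.016 over all genes. Between WT soleus and WT EDL, 16 of the 17 were higher, with a median of 1.51. Phgdh, the first enzyme of serine synthesis, was at 3.89, 5.67, 4.24, 4.41 and 3.84 CPM in Atf4 ECKO soleus and at 25.1, 27.1, 26.8, 26 and 20.8 CPM in WT EDL. All deleted libraries were low, without overlap (log2 -2.55 ± 0.125, adjusted p = 1.8e-14). Its WT soleus level was 123 ± 10.7 CPM (log2 2.29 ± 0.0954 against WT EDL). Psat1, the next enzyme of that pathway, was at 10.9, 9.22, 9.21, 6.19 and 6.4 CPM against 46.7, 53.3, 60.3, 49 and 51.3 CPM (log2 -2.65 ± 0.106). Asns, which makes asparagine, was at 29.8, 30.1, 30.7, 33.4 and 32.8 CPM against 138, 135, 141, 142 and 150.2 CPM, and its groups did not overlap (log2 -2.17 ± 0.0512, adjusted p = 2e-21). Mthfd2, the mitochondrial folate enzyme, fell from 39.7 ± 3.19 CPM in WT EDL to 4.12 ± 0.66 CPM (log2 -3.25 ± 0.0922). Bcat1, which transaminates branched-chain amino acids, was at 0.461 ± 0.136 against 5.87 ± 0.951 CPM (log2 -3.67 ± 0.217). Pycr1 and Aldh18a1, both enzymes of proline synthesis, had log2 differences of -2.69 ± 0.262 and -2.23 ± 0.122.

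On the same list, Mthfd1l, Got1 and Shmt1 did not pass. Got1, the cytosolic aspartate aminotransferase, was at 19.6 ± 1.24 CPM in Atf4 ECKO soleus and 22.4 ± 2.19 CPM in WT EDL, with a 95% interval of -0.37 to -0.02 on the log2 scale. Without WT EDL library 4, Got1 passed (log2 -0.24, edgeR adjusted p = 0.0451), and without Atf4 ECKO soleus libraries 4 and 5 so did Mthfd1l (-0.49, adjusted p = 0.0194). Shmt1 overlaps another gene or shares sequence with one, so its counts are uncertain. Cbs, which condenses homocysteine with serine, was the 1 higher member (log2 1.04 ± 0.378, adjusted p = 0.04), at 1.38 ± 0.598 against 0.665 ± 0.15 CPM. This call on Cbs was lost in 11 alternatives, with adjusted p from 0.0657 to 0.199 and log2 differences from 0.85 to 1.13 in those.

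Amino acid transporters were divided. Of 16 tested, 6 were lower, 3 higher and 7 not passed, with a median of -0.14, while 12 of them were higher in WT soleus than in WT EDL. Slc7a11, which imports cystine, was at 13.9, 10.3, 11.7, 6.87 and 8.55 CPM in Atf4 ECKO soleus and at 54.5, 49.9, 53.7, 52.3 and 55.3 CPM in WT EDL, with no overlap (log2 -2.37 ± 0.114, adjusted p = 1.2e-14). Slc1a4, a carrier of small neutral amino acids, was at 1.61 ± 0.795 against 14.6 ± 1.93 CPM (log2 -3.26 ± 0.201), and Slc7a1, which carries cationic amino acids, at 27.3 ± 1.05 against 45 ± 2.61 CPM (log2 -0.72 ± 0.0592). Slc1a5, a glutamine carrier, was not passed, at 49.2 ± 4.24 and 52.6 ± 3.38 CPM with a 95% interval of -0.26 to 0.07, and it stood at 99.3 ± 13.8 CPM in WT soleus. The glutamine carrier Slc38a2 was higher (log2 0.22 ± 0.0513, adjusted p = 0.0018), as were Slc7a6 and Slc43a1 (log2 0.34 and 1.25). With libraries 4 and 5 as the only Atf4 ECKO soleus libraries, none of these 3 passed (edgeR adjusted p = 0.298 for Slc38a2, 0.0512 for Slc7a6 and 0.199 for Slc43a1).

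Cytosolic tRNA synthetases, the enzymes that load each tRNA with its amino acid, were lower in 14 of 20 members, higher in 1 and not passed in 5 (median -0.46). The higher members were 2 without libraries 4 and 5, without 4, without 5 and without WT EDL library 3. In WT soleus against WT EDL, 14 were higher and 1 was lower. Gars, the glycyl enzyme, was at 101, 101, 102, 82.7 and 98 CPM against 153, 156, 159.6, 160.1 and 172 CPM (log2 -0.72 ± 0.0552). Nars, Iars and, chosen after its values were seen, Lars, for asparagine, isoleucine and leucine, had log2 differences of -0.80 ± 0.0435, -0.88 ± 0.0645 and -0.55 ± 0.0579. The list was not uniform: Dars, for aspartate, was higher (89.6 ± 3.82 against 76.1 ± 4.04 CPM, log2 0.24 ± 0.051). Rars, for arginine, was at 111 ± 11.4 CPM in Atf4 ECKO soleus, 114 ± 6.34 in WT EDL and 286 ± 13.5 in WT soleus. The 95% interval of the Rars difference from WT EDL was -0.16 to 0.09, and with libraries 4 and 5 alone it was lower (log2 -0.19, edgeR adjusted p = 0.0434).

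**Figure D3:**
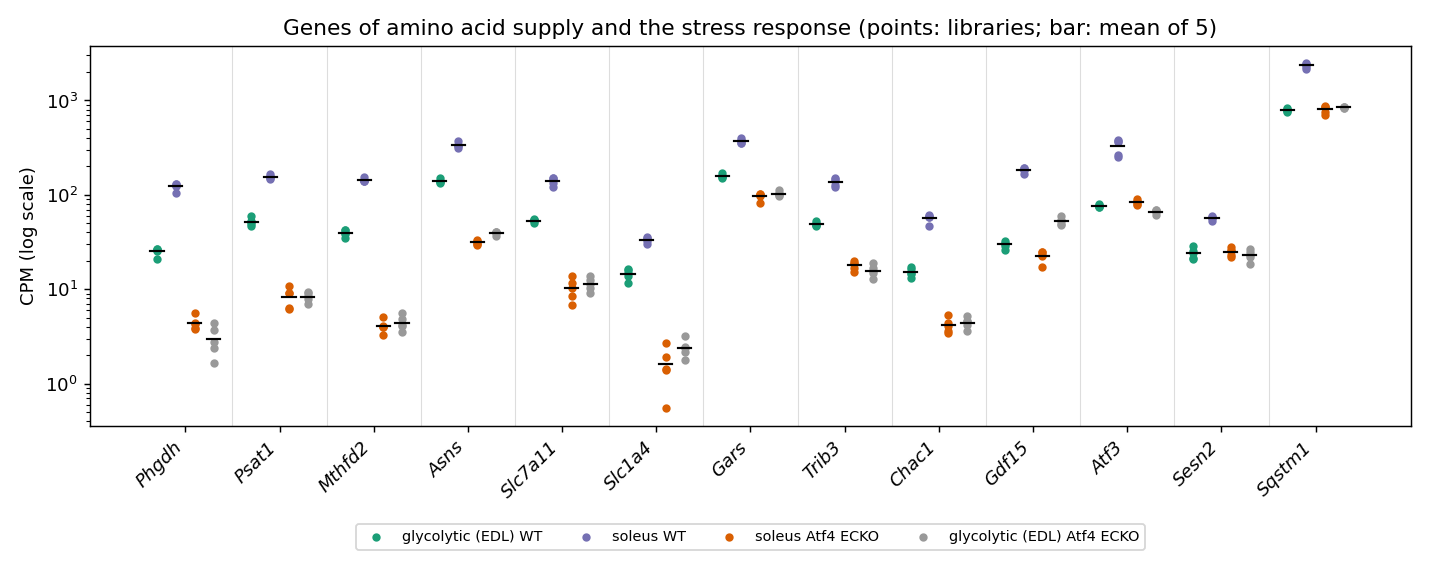
CPM (log axis) of 13 genes of amino acid supply and the stress response in the 4 groups; points are libraries and bars are means of 5. Phgdh to Chac1 lie below WT EDL in both Atf4 ECKO groups, whereas Atf3, Sesn2 and Sqstm1 of Atf4 ECKO soleus lie at the WT EDL level, below WT soleus.

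Of 18 tested regulators of the stress response, 9 were lower, 3 higher and 6 not passed (median -0.17). In WT soleus 16 of the 18 were higher than in WT EDL, with a median of 1.47. Trib3, a pseudokinase that restrains the response, was at 19.2, 18.3, 19.8, 16.9 and 15.3 CPM in Atf4 ECKO soleus and 52.8, 50.5, 48.3, 48 and 46.3 CPM in WT EDL (log2 -1.46 ± 0.0833, adjusted p = 3.2e-13). Chac1, which degrades glutathione, was at 3.6, 4.14, 3.45, 4.41 and 5.39 against 16.4, 17.2, 13.2, 14.6 and 14.8 CPM (log2 -1.84 ± 0.118). Nupr1, a small chromatin protein induced by stress, and Eif4ebp1, a repressor of cap-dependent translation, had log2 differences of -1.58 ± 0.183 and -1.10 ± 0.0739. For each of these 4 genes all 5 libraries lay below WT EDL.

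Atf3, a repressor related to ATF4, was at 78.5, 79.2, 85.2, 83.6 and 91 CPM in Atf4 ECKO soleus and at 78.8, 74.5, 76.7, 79.4 and 73.5 CPM in WT EDL. Its groups overlapped, and the log2 difference of 0.13 ± 0.0897 did not pass (adjusted p = 0.30, 95% interval -0.06 to 0.31), although WT soleus stood at 327 ± 64.1 CPM. Sesn2, which signals leucine shortage to mTORC1, was at 24.8 ± 2.37 and 24.1 ± 3.11 CPM (95% interval -0.14 to 0.23), with 56.6 ± 2.64 CPM in WT soleus. Cebpg, a partner of ATF4 on DNA, was at 59.4 ± 3.6 and 61 ± 1.3 CPM (95% interval -0.16 to 0.07). Gdf15, a secreted stress hormone chosen here after its values were seen, was at 24.8, 23.1, 22.3, 17.2 and 25 CPM against 32.5, 30.4, 28.9, 31.2 and 26.1 CPM (log2 -0.40 ± 0.0823, adjusted p = 0.00055). The Gdf15 level in WT soleus was 183 ± 11.2 CPM. Pmaip1, which encodes the death-promoting protein Noxa, was higher, at 12.8, 13.8, 13, 8.98 and 10.3 CPM against 2.75, 1.46, 1.16, 1.59 and 1.25 CPM (log2 2.88 ± 0.168, adjusted p = 5.1e-13). Its WT soleus mean was 10.3 CPM and its Atf4 ECKO EDL mean 23.5 CPM. Ddit3, which encodes the factor CHOP, was higher by a small margin (log2 0.24 ± 0.0814, adjusted p = 0.03). That call was lost in 8 alternatives (edgeR adjusted p = 0.0505 to 0.144). Exons of Ddit3 overlap those of another gene, as do those of Cebpb, so the counts of both are uncertain. Cebpb, another C/EBP partner, did not pass at 14.6 ± 7.25 against 7.06 ± 4.54 CPM (95% interval 0.22 to 1.82), but was higher in 8 alternatives (log2 1.00 to 1.48, edgeR adjusted p = 0.000589 to 0.05), among them those without libraries 4 and 5, without 4, without 5 and without WT EDL library 5. Herpud1, an ER degradation factor, averaged 178 ± 24.4 and 178 ± 2.12 CPM, with libraries 1 and 2 below and 4 and 5 above all WT EDL libraries.

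Promoter windows of these 4 lists (synthesis, transport, charging, regulators) were searched for the core of the element bound by ATF4 with C/EBP partners, TGATGNAA on either strand (TTNCATCA when read on the other). Windows ran from 250 bases before to 50 after the RefSeq start site in GRCm38.p6, and 54 of the 72 members had a window. Of members with one, a match was present in 14 of 33 that were lower (42.4%), in 4 of 13 that did not pass (30.8%) and in 0 of 7 that were higher. The share was 4.51% of all 27025 genes and 3.97% of all 32851 windows. A match is a description of the letters only. Below are stretches of 60 bases, 5′ to 3′ on the gene's strand, from 4 lower genes and from 2 that did not pass, shown because both kinds carry the element. Capitals mark the match.
Slc7a11 (lower, chr3:50443646-50443705, minus): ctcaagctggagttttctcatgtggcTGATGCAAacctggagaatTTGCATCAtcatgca
Pycr1 (lower, chr11:120643818-120643877, minus): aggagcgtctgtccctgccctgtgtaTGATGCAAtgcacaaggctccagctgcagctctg
Chac1 (lower, chr2:119351023-119351082, plus): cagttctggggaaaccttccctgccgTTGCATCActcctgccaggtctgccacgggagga
Nupr1 (lower, chr7:126625547-126625606, minus): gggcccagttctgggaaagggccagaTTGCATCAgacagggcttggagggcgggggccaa
Atf3 (not passed, chr1:191183410-191183469, minus): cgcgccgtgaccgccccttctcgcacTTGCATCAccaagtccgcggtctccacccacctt
Got1 (not passed, chr19:43524674-43524733, minus): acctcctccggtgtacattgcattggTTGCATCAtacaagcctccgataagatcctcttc
Matches differed in number within a call: Slc7a11, lower, held 2, while Pycr1, Chac1 and Nupr1, also lower, held 1 each. Slc7a7, an amino acid carrier that did not pass, held 2 distinct ones (1 lies in both of its overlapping windows). Its exons overlap those of another gene, so its counts are uncertain.

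Oxidative stress genes were lower in 10 of 11 members and higher in 0 (median -0.70), although 8 were higher in WT soleus than in WT EDL. Nqo1, a quinone reductase, was at 23.5, 26.8, 28.9, 25.9 and 27.3 CPM against 132, 138, 141, 140.0 and 151 CPM (log2 -2.40 ± 0.0624, adjusted p = 1.6e-20). It was already lower in WT soleus, at 86.2 ± 5.91 CPM. Gclm, the modifier subunit of glutamate-cysteine ligase, and Srxn1, which repairs peroxiredoxins, had log2 differences of -1.45 ± 0.0608 and -1.24 ± 0.0843. Hmox1, heme oxygenase, chosen after its values were seen, was at 113, 115, 98.5, 72.6 and 83.7 CPM against 150.3, 154, 151, 169.8 and 154 CPM (log2 -0.69 ± 0.0849), while WT soleus stood at 1621 ± 122 CPM. Sqstm1, an autophagy receptor, was level with WT EDL at 807 ± 75.7 against 789.9 ± 32.7 CPM (95% interval -0.08 to 0.14), far from 2350 ± 129 CPM in WT soleus. Without libraries 4 and 5, Sqstm1 was higher by 0.12 on the log2 scale (edgeR adjusted p = 0.0368).

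Heat shock genes were lower in 11 of 12 members (median -0.43), for example Hsph1 (log2 -0.53 ± 0.128). ER chaperones were lower in 10 of 16 and higher in 0 (median -0.23). Without libraries 4 and 5, 2 were higher, and without library 4, 1 was. Pdia6 was among the lower ones, at 159 ± 3.06 against 214 ± 10.9 CPM (log2 -0.43 ± 0.0433). Between WT soleus and WT EDL, 9 of the 16 chaperones were lower in soleus and 2 higher (median -0.24). On the mean log2 level of the heat shock list, libraries 1 and 2 lay at -0.26 and -0.24 from WT EDL and libraries 4 and 5 at -0.61 and -0.60. Of 13 p53 target genes, 10 were higher and 1 lower (2 lower with libraries 4 and 5 alone; median 0.35). Cdkn1a, an inhibitor of cell division, was at 777, 790.5, 649, 457 and 516 CPM against 286, 292, 289, 301 and 299 CPM (log2 1.12 ± 0.0971, adjusted p = 1.1e-09). All 5 libraries lay above WT EDL, on both sides of the WT soleus mean of 674 ± 28.9 CPM. Phlda3, Fas and Bax, 3 further targets, had log2 differences of 0.84 ± 0.0628, 0.55 ± 0.0609 and 0.48 ± 0.051, and Plk2 was lower (-0.33 ± 0.0471). Ribosomal protein genes were lower in 26 of 30 members and higher in 1 (median -0.26). The 1 higher member was lost with libraries 4 and 5 alone and without any 1 of 8 libraries, and without library 4 there were 2. In WT soleus 16 were higher and 0 lower. Several of them share sequence with processed copies, which makes single members uncertain.

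Immediate early genes, which respond quickly to stimuli, were higher in 10 of 26 members, lower in 1 and not passed in 15 (median 0.20). The lower members were 3 without libraries 4 and 5, without 4, without 5, and with those 2 alone. In WT soleus 23 of the 26 were higher than in WT EDL (median 0.83). Fos was at 311, 342, 349, 412 and 409 CPM in Atf4 ECKO soleus and at 214, 212, 209, 211 and 223 CPM in WT EDL, with no overlap (log2 0.77 ± 0.0739). The WT soleus mean of Fos was 1089 ± 137 CPM. Fosb had a log2 difference of 1.23 ± 0.0978, Ier3 of 0.74 ± 0.061 and Klf6 of 0.60 ± 0.0517, and the nuclear receptor gene Nr4a2 was lower (-0.72 ± 0.147). Jun was level, at 859 ± 146 and 856 ± 22 CPM (95% interval -0.18 to 0.19).

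Energy genes kept part of the soleus pattern. Of 13 mitochondrially encoded genes, 12 were higher (median 0.64), and all 13 were higher in WT soleus (median 1.33). Mt-Cytb, a subunit of respiratory complex III, was at 8147, 7892, 6419, 5728 and 5289 CPM in Atf4 ECKO soleus and at 4125, 4580, 4101, 4407 and 4112 CPM in WT EDL (log2 0.65 ± 0.0866, adjusted p = 1.7e-06). Libraries 1 and 2 were the highest, and no library overlapped WT EDL. Mitochondrial genes took 7.38% to 10.6% of counts in Atf4 ECKO soleus and 5.74% to 6.16% in WT EDL. Nuclear genes of oxidative phosphorylation ran the other way, with 14 of 24 lower and 0 higher (1 higher without libraries 4 and 5 and without library 4; median -0.15). Ndufa4, a subunit of the respiratory chain, was at 200.2 ± 10.9 against 292 ± 7.72 CPM (log2 -0.55 ± 0.0421). Between the groups, muscle fibre RNA was higher in Atf4 ECKO soleus as well, in 8 of 10 slow fibre genes and 11 of 14 fast fibre genes. Summed fast fibre RNA was 421 to 506 CPM against 269.5 to 298 CPM. Summed slow fibre RNA overlapped, at 606 to 674 against 590.2 to 632 CPM, but the median log2 difference of its members was 3.91. The mean log2 level of the slow fibre list did not overlap, at 3.08 to 3.55 against 0.067 to 0.684. Atp2a2 and Tpm3 were the 2 slow fibre members that did not pass. Atf4 ECKO EDL held fast fibre RNA at 464 to 500.5 CPM, with mitochondrial genes at 5.50% to 5.67% of counts. The part of fibre RNA in the mitochondrial difference was not tested.

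Glycolysis genes were lower in 9 of 17 members and higher in 1 (median -0.17), beside 8 lower and 3 higher in WT soleus (median -0.15). The 1 higher member was lost without libraries 4 and 5, without any 1 of libraries 3, 4 and 5 and of WT EDL libraries 2, 3 and 4, while 2 were higher with libraries 4 and 5 alone and without library 1. Ldha, lactate dehydrogenase A, was at 459, 451, 485, 473 and 491 CPM against 629.7, 572, 589, 621 and 553 CPM (log2 -0.33 ± 0.0427), close to 456 ± 7.42 CPM in WT soleus. Hk1 and Pkm, the first and last kinases of the pathway, had log2 differences of -0.19 ± 0.0443 and -0.36 ± 0.0601. The glucose carrier Slc2a1 did not pass (122 ± 16.6 against 132 ± 6.21 CPM), but was lower with libraries 4 and 5 alone (log2 -0.32, edgeR adjusted p = 0.00019) and without library 1 (-0.18, adjusted p = 0.0249). Cholesterol synthesis genes were lower in 14 of 21 members and higher in 0 (median -0.46), beside 18 lower in WT soleus (median -0.50). Atf4 ECKO EDL was low too, with a mean log2 level of the list of 3.85 to 3.98. That level was 3.85 to 3.93 in Atf4 ECKO soleus and 4.33 to 4.44 in WT EDL. Sqle, the squalene epoxidase, was at 9.69, 6.86, 9.33, 7.38 and 6.08 CPM against 15.7, 16.5, 14.8, 17.2 and 20.0 CPM (log2 -1.10 ± 0.125, adjusted p = 1.4e-07), and WT soleus lay at 8.27 ± 0.723 CPM. All 5 libraries of Atf4 ECKO soleus lay below those of WT EDL for Sqle.

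Endothelial genes of fatty acid handling moved both ways, with 7 of 16 higher and 5 lower (median 0.18). On the mean log2 level of the list, library 1 lay at -0.07 from the WT EDL mean and libraries 4 and 5 at 0.20. Adipocyte RNA moved with it, at a sum over 6 markers of 1.13 to 11.3 CPM against 0.385 to 1.87 CPM. Cfd, an adipocyte protease and the 1 member tested, was higher (log2 3.07 ± 0.501), and Lep was at 0 in both groups. The part of adipocyte RNA in the list's differences was not tested. Lpl, lipoprotein lipase, was at 1162, 1214, 945, 854 and 834 CPM in Atf4 ECKO soleus and at 352, 375, 373, 371 and 394 CPM in WT EDL (log2 1.42 ± 0.0757, adjusted p = 7.8e-14). Its deleted libraries all lay above WT EDL and above the WT soleus mean of 438 ± 16.2 CPM. Pparg, a nuclear receptor that controls lipid genes, was higher (log2 0.37 ± 0.0685). Tcf15, a transcription factor that drives fatty acid uptake in capillaries with Meox2, was lower (100.2 ± 11.6 against 179 ± 10.3 CPM, log2 -0.83 ± 0.0621), as were the binding protein Fabp5 and the carrier Slc27a3 (log2 -0.49 ± 0.0885 and -0.80 ± 0.104).

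Among vessel identity genes, all 9 venous markers were lower in Atf4 ECKO soleus (median -0.73), and 6 were lower in WT soleus (median -0.42). The mean log2 level of the venous list was also below WT EDL (7.135 to 7.163) in Atf4 ECKO EDL, at 6.71 to 6.75. Ackr1, a chemokine-binding receptor of venules, was at 36.3, 35.6, 31.9, 27.2 and 29.5 CPM against 135, 127, 128, 136 and 115 CPM (log2 -2.0 ± 0.0701, adjusted p = 1.4e-17). Selp, which encodes P-selectin, was at 36.2, 36.6, 32, 29.8 and 31.9 CPM against 127, 116, 131, 118 and 119 CPM (log2 -1.88 ± 0.0609, adjusted p = 2.7e-18). In both genes the groups were far apart. The WT soleus mean of Selp was 112 ± 8.81 CPM and did not pass against WT EDL (log2 -0.13 ± 0.0563, adjusted p = 0.089). Vwf, which encodes von Willebrand factor, was at 166 ± 10.1 against 338 ± 25.9 CPM (log2 -1.03 ± 0.0523), with 187 ± 10.3 CPM in WT soleus. Nr2f2, the transcription factor that sets venous fate, and Lrg1 had log2 differences of -0.73 ± 0.0924 and -1.13 ± 0.116.

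Arterial markers were lower in 9 of 14 members and higher in 0 (median -0.53), beside 8 lower and 2 higher in WT soleus (median -0.28). The mean log2 level of the arterial list was 6.13 to 6.21 in Atf4 ECKO EDL, also below WT EDL at 6.49 to 6.56. Gja4, a gap junction protein, was at 24.7, 21.3, 22.8, 19.2 and 17.3 CPM against 41.4, 36.9, 40.2, 44.9 and 36.4 CPM (log2 -0.93 ± 0.141). Vegfc, a growth factor for lymphatic vessels, and Fbln5, an elastic fibre protein, had log2 differences of -1.09 ± 0.115 and -0.91 ± 0.0451. Sox17 and Dll4, an arterial transcription factor and a Notch ligand, did not pass, with 95% intervals of -0.11 to 0.18 and 0.02 to 0.21. Sox17 was higher without libraries 4 and 5 (log2 0.17, edgeR adjusted p = 0.029) and lower with those alone (-0.19, adjusted p = 0.039). Dll4 was higher with DESeq2 on all libraries (log2 0.12, adjusted p = 0.0429) and with the replicate number as a block (0.12, edgeR adjusted p = 0.0484). It was also higher without libraries 4 and 5 (0.16, edgeR adjusted p = 0.0167), without library 5 alone (adjusted p = 0.0418) and without WT EDL library 1 (adjusted p = 0.0302). Capillary markers were higher in 7 of 12 members and lower in 3 (median 0.24). Car4, a carbonic anhydrase of capillaries, was at 533, 546, 400.4, 294 and 299.9 CPM against 222, 224, 223, 221 and 204 CPM (log2 0.92 ± 0.122), highest in libraries 1 and 2. Btnl9 had a log2 difference of 0.74 ± 0.0602. Lymphatic markers were higher in 4 of 8 members and lower in 2 (median 0.71). The lower ones were Fxyd6 (log2 -0.47 ± 0.108) and the chemokine gene Ccl21a (log2 -0.55 ± 0.204). Ccl21a shares its whole sequence with near copies and is uncertain, and its call was lost with DESeq2, with the 2 groups alone and without any 1 of 8 libraries (all but Atf4 ECKO soleus libraries 4 and 5). With libraries 4 and 5 alone, neither was lower. Flt4, the receptor of VEGF-C, was at 197 ± 12.6 against 145 ± 7.56 CPM (log2 0.44 ± 0.0496). Of the 16 pan-endothelial genes, 1 was higher, 6 were lower and 9 did not pass (median -0.03). The higher one was Flt1, a VEGF receptor (log2 0.16 ± 0.0546), whose call was lost without a low-count filter, without library 4 or 5 or both, and without WT EDL library 1 or 3. Without libraries 4 and 5, 3 pan-endothelial genes were higher, and with those alone 2. Pecam1, which encodes the CD31 used in the sort, was at 1861 ± 116 and 1790 ± 47.1 CPM, and passed without libraries 4 and 5 (log2 0.12, edgeR adjusted p = 0.0254).

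**Figure D4:**
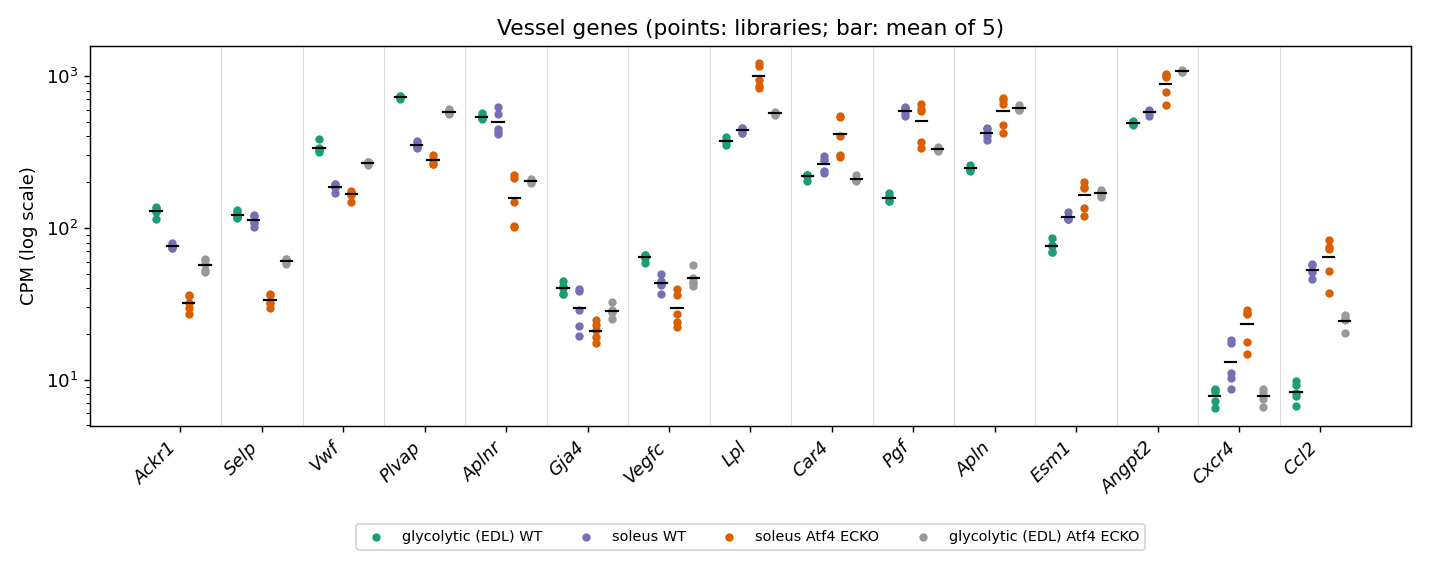
CPM (log axis) of 15 vessel genes in the 4 groups; points are libraries and bars are means of 5. Ackr1, Selp, Vwf, Plvap and Aplnr of Atf4 ECKO soleus lie below every WT EDL library, and Lpl, Pgf, Apln, Esm1, Angpt2, Cxcr4 and Ccl2 lie above.

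Genes of sprouting and of tip cells, which lead new vessel branches, were higher in 8 of 17 members, lower in 2 (4 without libraries 4 and 5) and not passed in 7 (median 0.11). In WT soleus the counts against WT EDL were the same, with 8 higher and 2 lower (median 0.012). Pgf, placental growth factor, was at 651, 603, 585, 367 and 337 CPM in Atf4 ECKO soleus and at 169, 149, 159, 163 and 149 CPM in WT EDL (log2 1.69 ± 0.121). The WT soleus mean was 591 ± 33.5 CPM, and every library of the deleted group lay above WT EDL, with libraries 4 and 5 the lowest. Apln, the ligand apelin, was at 717, 694, 651, 421 and 474 CPM against 244, 236, 260.1, 245 and 246 CPM (log2 1.26 ± 0.0996, adjusted p = 1.8e-10). Its receptor gene Aplnr was lower, at 103, 101, 148, 213 and 222 CPM against 572, 522, 552, 526 and 525 CPM (log2 -1.77 ± 0.157, adjusted p = 1.6e-09). WT soleus stood at 494 ± 91.1 CPM for Aplnr and Atf4 ECKO EDL at 203 ± 4.37 CPM. Plvap, which forms the diaphragms of fenestrae, was at 278 ± 16.3 against 726 ± 14.9 CPM (log2 -1.38 ± 0.0454). Esm1, a tip cell proteoglycan, Angpt2, a ligand that loosens vessels, and the chemokine receptor Cxcr4 had log2 differences of 1.12 ± 0.0969, 0.87 ± 0.0819 and 1.54 ± 0.19. Angpt2 and Cxcr4 were chosen after their values were seen.

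Genes of leukocyte adhesion and cytokines were higher in 6 of 12 members and lower in 3 (median 0.22). Ccl2, which recruits monocytes, was at 82.8, 72, 74.6, 52.1 and 37.3 CPM against 6.67, 9.26, 8.17, 7.75 and 9.73 CPM (log2 2.91 ± 0.16, adjusted p = 1.5e-13), near 52.8 ± 4.71 CPM in WT soleus. Icam1, an adhesion receptor, had a log2 difference of 0.67 ± 0.0703. Of 10 flow-responsive genes, 3 were higher (1 without libraries 4 and 5) and 4 lower. Edn1, the vasoconstrictor endothelin, was at 513, 485, 466, 310.3 and 383 CPM against 214, 207, 207, 207 and 209 CPM (log2 1.05 ± 0.0841), and Slco2a1, a prostaglandin carrier, at 20.0 ± 1.89 against 54.8 ± 3.71 CPM (log2 -1.44 ± 0.08). Of 14 immune markers, 8 were higher (3 with the 2 groups alone) and 2 lower, and their summed level was 37.3 to 85.7 CPM against 24.1 to 30.0 CPM. In WT soleus all 14 were higher than in WT EDL, and the sum was 286 to 379 CPM. Ptprc, which encodes the excluded CD45, was at 0.252 ± 0.111 CPM in Atf4 ECKO soleus against 0.134 ± 0.088 CPM in WT EDL. With libraries 4 and 5 as the only Atf4 ECKO soleus libraries, 2 immune markers were higher. The part of immune RNA in the Ccl2 difference was not tested.

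Basement membrane genes were higher in 4 of 13 members and lower in 6. Lamb1, a laminin chain, was at 166, 175, 199.5, 199.6 and 194 CPM against 94.4, 89.4, 93.5, 84 and 90.6 CPM (log2 1.05 ± 0.0619), and Col18a1, the source of endostatin, at 104 ± 18.8 against 167 ± 9.41 CPM (log2 -0.67 ± 0.0951). Retinoic acid genes were lower in 5 of 9 members and higher in 1 (median -0.43), beside 5 lower and 1 higher in WT soleus (median -0.37). Cyp26b1, which degrades retinoic acid, was at 14.1, 12.1, 11.4, 14.8 and 12.1 CPM in Atf4 ECKO soleus and at 96.5, 113, 95.5, 108 and 96.7 CPM in WT EDL (log2 -3.00 ± 0.158, adjusted p = 7.4e-14). Both wild type groups were high, with WT soleus at 79.4 ± 25.3 CPM, and Atf4 ECKO EDL at 10.6 ± 0.824 CPM was low. Interferon response genes were higher in 9 of 17 members and lower in 2 (median 0.30), whereas 1 was higher and 9 lower in WT soleus. Ifit2 was at 108, 110.2, 93.2, 102 and 100.5 CPM against 65.3, 57.8, 66.6, 68.4 and 58.8 CPM (log2 0.70 ± 0.0596), and Bst2, a tether of virus particles, was lower (-0.25 ± 0.0485). Glucocorticoid response genes were higher in 8 of 12 members and lower in 3 (median 0.40). The lower members were 1 without libraries 4 and 5 and 5 with those alone. Zbtb16, a repressor strongly induced by glucocorticoids, was at 82, 88.4, 55.9, 35 and 39.5 CPM against 19.2, 14.8, 15.7, 18.9 and 18.4 CPM (log2 1.78 ± 0.179), highest in libraries 1 and 2. Klf9 was even across libraries, at 273, 264, 245, 285 and 267 CPM against 162, 157, 161, 165 and 155 CPM (log2 0.74 ± 0.0403).

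Circadian clock genes divided the Atf4 ECKO soleus libraries. The clock runs on BMAL1, encoded by Arntl, which drives Per and Cry repressors and output factors such as Tef and Hlf. Over all 5 libraries, 5 of 16 members were higher, 0 lower and 11 did not pass (31.25% called, beside 28.9% of all tested genes). With libraries 4 and 5 alone, 13 were higher, and with libraries 1 to 3 alone, 5 were lower. Without library 1, 8 were higher, and without WT EDL library 5, 3. Arntl was at 27.3, 24.6, 17.1, 7.71 and 10.4 CPM in libraries 1 to 5 and at 15.6, 15.1, 13.6, 13.5 and 12.9 CPM in WT EDL. Per3 was at 12.5, 14.8, 27.3, 42.6 and 41.5 CPM against 26.1, 23.6, 23.9, 23.5 and 24 CPM. Arntl was thus above WT EDL in libraries 1 to 3 and below in 4 and 5, and Per3 was below in 1 and 2 and above in 3, 4 and 5. Tef was at 35.8, 40.5, 55, 87.7 and 86.7 CPM against 53.7, 51.6, 53.4, 57.6 and 52 CPM, with library 3 inside the WT EDL range. Per2 was above WT EDL in every library, at 22.8, 22.9, 30.2, 39.2 and 37.6 CPM against 14.8, 16.7, 12.1, 14.6 and 13.5 CPM (log2 1.09 ± 0.135, adjusted p = 5e-07). Per1 passed over all libraries (log2 0.42 ± 0.139, adjusted p = 0.023) but not without libraries 4 and 5 (edgeR adjusted p = 0.599), without either of them (0.101 and 0.0819) or without WT EDL library 5 (0.0553). The times at which animals were killed are not given in the sources used here, and sex and collection cannot be told apart from this division.

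**Figure D5:**
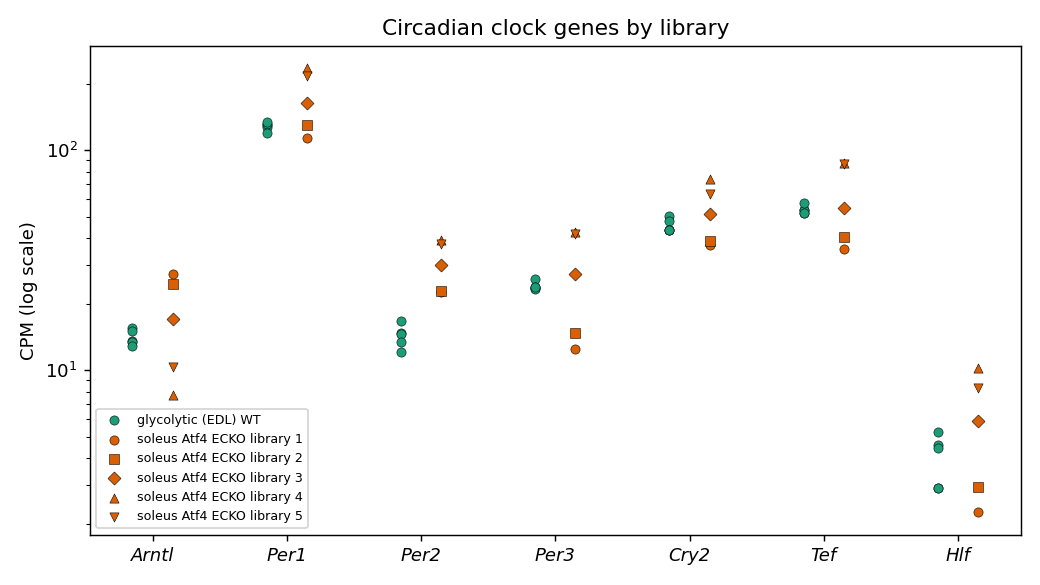
CPM (log axis) of 7 circadian clock genes in WT EDL (green circles) and in the 5 Atf4 ECKO soleus libraries (orange, 1 symbol per library). Libraries 4 and 5 lie lowest for Arntl and highest for Per1, Per2, Per3, Cry2, Tef and Hlf, and libraries 1 and 2 lie at the other end.

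The 10 largest rises and falls named here leave out genes on the lists of other cell types and of sex-linked RNA, among which Xist, Myl3, Myl2 and Mb rose more than the last of the rises named and Cd74 fell more than the last of the falls. Exons of Myl2 and Myl3 overlap those of other genes, so their counts are uncertain. Esr1, the estrogen receptor gene (chr10:4611593-5005614), was at 34.9, 34.8, 39.6, 26.6 and 30.4 CPM in Atf4 ECKO soleus and at 3.38, 2.92, 2.7, 1.76 and 2.71 CPM in WT EDL (log2 3.64 ± 0.152, adjusted p = 7.1e-16). Every deleted library was high, including those with Y-linked RNA, and Atf4 ECKO EDL held 29.6 ± 5.16 CPM against 2.18 ± 0.44 CPM in WT soleus. Counts assigned to Esr1 were thus high in both deleted groups and low in both wild type groups, whose mice lacked Cre. Whether these counts come from the Esr1 gene itself was not tested. Gpnmb, a membrane glycoprotein also abundant in macrophages, was at 13.3, 12.2, 9.45, 8.82 and 6.95 CPM against 1.6, 1.28, 0.616, 1.15 and 1.04 CPM (log2 3.11 ± 0.187), with 123 ± 6.25 CPM in WT soleus. Tsix, the antisense partner of Xist, was higher and cannot be told apart from Xist without strand. AY036118, whose whole sequence is shared with another gene, was at 1954, 1766, 940.1, 0 and 1918 CPM against 187, 0, 0.154, 0 and 0.104 CPM. Its groups overlapped and the call was lost with DESeq2, limma-voom and 3 of the left-out libraries, so it is uncertain.

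The other 5 of these 10 rises were genes of tendon, cartilage and other matrix: Chad, Cilp, Col22a1, Itgbl1 and Thbs4. Thbs4, a thrombospondin of tendon, was at 5.94, 6.15, 33.3, 57.8 and 62.2 CPM against 3.73, 2.87, 2, 2.53 and 2.86 CPM (log2 3.60 ± 0.632, adjusted p = 8.2e-05). Cilp, a cartilage matrix protein, was at 0.495, 0.473, 12.5, 21 and 23.9 CPM against 0.533, 0.912, 0.385, 0.165 and 0.781 CPM. Libraries 1 and 2 lay within the WT EDL range for Cilp, and libraries 3, 4 and 5 far above it. The same 3 libraries held the high fibroblast RNA given above, with Col1a1 at 13.8, 17.1, 55.1, 109 and 97.6 CPM against 8.89, 8.03, 9.86, 8.58 and 9.27 CPM. Over all libraries 9 of 12 fibroblast markers were higher, and 5 without libraries 4 and 5. The part of fibroblast RNA in these 5 genes was not tested. With limma-voom, Chad and Cilp did not pass (adjusted p = 0.0517 and 0.108).

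Among the 10 falls, Tnfsf18, a cytokine of the TNF family that binds GITR on T cells (chr1:161494655-161505290), was at 0.424, 0.236, 0.121, 0.593 and 0.366 CPM in Atf4 ECKO soleus and at 10.1, 11.8, 7.09, 10.7 and 9.37 CPM in WT EDL (log2 -4.80 ± 0.328, adjusted p = 1.1e-11). WT soleus stood at 9.45 ± 2.12 CPM and Atf4 ECKO EDL at 0.409 ± 0.444 CPM, so both deleted groups were low. Spon2, a secreted matrix protein (chr5:33198184-33218455), was at 1.49, 0.118, 1.39, 0.678 and 1.74 CPM against 18.3, 14.5, 15.1, 16.3 and 15.8 CPM (log2 -3.72 ± 0.231, adjusted p = 1.6e-12). WT soleus was low as well, at 1.83 ± 0.459 CPM (log2 -3.13 ± 0.221 against WT EDL), with Atf4 ECKO EDL between at 5.01 ± 0.677 CPM. Penk, the enkephalin precursor, was at 0.566, 0.827, 1.88, 3.9 and 3.75 CPM against 16.3, 12.6, 15, 14.3 and 16.4 CPM (log2 -2.69 ± 0.268), and WT soleus at 5.55 ± 0.65 CPM. The remaining falls, Bcat1, Slc1a4, Mthfd2, Rps19bp1, Cyp26b1, Pycr1 and Atf4 itself, are given above.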

How the data were processed

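For every library the authors deposited estimated counts and TPM values of each transcript. The submitters' processing notes name kallisto and DESeq2, without versions, and the build GRCh38.p13, a human assembly, although the transcript identifiers are mouse ones. Reads were single-end of 100 bases from a stranded poly(A) kit, per the labels' protocols. How strand was handled in counting is not stated in these sources. The deposited TPM values were not used. Of 129439 transcripts, 128643 were found in GENCODE M21 (GRCm38), and estimated counts were summed to 42374 genes and rounded. At most 0.221% of a library's counts had no match.

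All 20 libraries were fitted together as 4 groups with edgeR 4.0.16 in R 4.3.3 (TMM factors, filterByExpr, quasi-likelihood test, Benjamini-Hochberg adjustment over 13971 genes). A log2 difference is Atf4 ECKO soleus minus WT EDL unless another pair is named, and ± after it is an SE computed from the F statistic. The test was tried on simulated counts. Genes are called uncertain where at least 20% of the longest transcript is shared at 98% identity (stretches of at least 100 bases, blastn 2.17.0) or where an overlapping gene has more than 10% of their level. The text names Atf4, the 10 largest rises and 10 largest falls among called genes of at least 4 CPM in a group (no clone names, pseudogenes, Y-linked genes, Xist or genes on lists of other cell types), and list members with the 6 smallest adjusted p, against the majority, or not passed. Angpt2, Cxcr4, Gdf15, Hmox1 and Lars lie outside this rule, and 2 list members within it are not reported here. The members and lists were chosen with earlier results of these data known. Alternatives were RLE factors, no filter, DESeq2 1.42.0, limma-voom 3.58.1, the 2 groups alone, a replicate block, autosomal genes alone, and leaving out libraries singly or by Y-linked share (5%).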

Additional observations from a re-analysis of the deposited data

Results flagged for a closer look

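The highest or lowest of the 5 libraries of a group stood apart from the other 4 (gap over range above 0.71, Dixon's 95% value) in 15 of 356 checks, covering 178 genes in Atf4 ECKO soleus and WT EDL. Chance flags about 1 in 20 groups. In Atf4 ECKO soleus there were 2 such values, both in library 4: Gars at 82.6 CPM (others 98 to 102) and Col18a1 at 71.3 CPM (others 111 to 118). The other 13 were in WT EDL. Library 1 gave 6: Pmaip1 at 2.76 CPM (others 1.16 to 1.59), Vwf at 383 (317 to 335), Edn1 at 214 (207 to 209), Per3 at 26.1 (23.5 to 24), Tsix at 0.0889 (all others 0) and AY036118 at 187 (0 to 0.154). Library 3 gave Fosb at 18.0 CPM, Nr4a2 at 14.5 and Myog at 0.077, with the other libraries at up to 15.1, 11.1 and 0. Library 4 gave Hmox1 at 170 CPM (others 150 to 154). Library 5 gave Klf6 at 793 CPM (others 737 to 753), Car4 at 204 (221 to 224) and Rgcc at 740 (792 to 805).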

How the results depend on the processing

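The number of genes that differed between Atf4 ECKO soleus and WT EDL was 4044 and lay between 3168 and 4292 over all alternatives, with 3168 from libraries 4 and 5 alone against WT EDL. Leaving out each library in turn gave 3519 to 3914, DESeq2 4143, limma-voom 4292 and the 2 groups alone 3469. The distance between group means stayed within 0.496 to 0.526. With the replicate number as a block, 3896 genes differed. Deviations of same-numbered libraries had correlations of 0.00089 to 0.037 over the 5 pairs, with the own number best for 3 of 5. The groups differ in genotype, so same-numbered libraries cannot come from the same animal. Whether they share anything else beyond a number, this check cannot tell. Of 3374 recomputed values for the 178 genes followed, 84 lost their call, 41 gained one and 6 changed direction, those 6 all when libraries were left out by Y-linked share. Without libraries 4 and 5, the log2 difference was -0.13 for Herpud1, -0.28 for Tef and -0.28 for Nr1d2. Without libraries 1 to 3, it was -0.19 for Sox17, -0.62 for Arntl and 0.0501 for Ccl21a. The cause was not tested. Mitochondrially encoded genes are absent from the fit of autosomal genes by its construction.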

Other observations

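Of Hox genes, which record body position, 0 of 12 tested members were higher in Atf4 ECKO soleus than in WT EDL, 2 were lower and 10 did not pass, beside 15.4% of all genes lower. The lower ones were Hoxd8 and Hoxb7 (log2 -0.26 ± 0.091 and -0.29 ± 0.0896). Neither was lower without library 5, without libraries 4 and 5 or with those alone, and 1 of them was without library 2, without any 1 of WT EDL libraries 1, 2, 3 and 5, and without a low-count filter. Hoxa7 was at 31.2, 32.5, 29.4, 34.9 and 33.8 CPM against 32.6, 32.9, 34.7, 31.7 and 34.4 CPM, with a 95% interval of -0.16 to 0.08 on the log2 scale. Of 14 cell cycle genes, 1 was higher (2 without library 5 or WT EDL library 4), 3 were lower (1 with libraries 4 and 5 alone) and 10 did not pass. The share called, 28.6%, was near the 28.9% of all tested genes, so the list did not stand out. Ccnd1, whose product drives entry into the cycle, was at 66.5, 63, 70.5, 74.8 and 85.5 CPM against 113, 125, 132, 131 and 134 CPM (log2 -0.81 ± 0.0674, edgeR adjusted p = 5.1e-10), and shares part of its transcript or overlaps another gene, which makes it uncertain.

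Myogenic transcripts were present in the sorted soleus cells. Of 8 satellite cell markers, 5 were higher (3 without libraries 4 and 5) and 1 lower. Myog, a transcription factor of muscle differentiation, was at 3.75, 2.6, 3.45, 2.54 and 1.65 CPM in Atf4 ECKO soleus and had counts in 1 WT EDL library. Mb, which encodes myoglobin, was at 16.6, 16.3, 18.8, 21.2 and 21.2 CPM against 2.13, 1.41, 1.08, 0.55 and 1.15 CPM (log2 3.94 ± 0.226).

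Of 13 pericyte and smooth muscle markers, 2 were higher, 3 lower and 8 not passed (median -0.18). The share called was 38.5%, beside 28.9% of all tested genes. Acta2, smooth muscle actin, was higher, at 351, 347, 341, 270.5 and 499 CPM against 186, 189, 190.0, 187 and 190.5 CPM, and stood at 1024 ± 12 CPM in Atf4 ECKO EDL. Mcam was the other higher one (log2 0.71 ± 0.0777), while Rgs5, Pdgfrb and Myh11 were lower (log2 -0.54 ± 0.092, -0.33 ± 0.115 and -0.44 ± 0.133). With libraries 4 and 5 alone, 1 was lower, and Pdgfrb also lost its call without any 1 of libraries 1, 2 and 3 or of WT EDL libraries 3 and 4. Among immune genes, Lyz2 was higher (log2 2.30 ± 0.149) while the antigen presentation genes Cd74 and H2-Aa were lower (log2 -2.88 ± 0.255 and -3.14 ± 0.336). Cd74 was at 1.13, 0.827, 0.788, 0.509 and 0.732 CPM against 4.8, 7.53, 6.63, 6.6 and 4.01 CPM, and the groups did not overlap. Red blood cell genes did not pass in any of 6 members, whereas 5 were lower without libraries 4 and 5, and 1 without library 4 or without library 5.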
